A study of Mus musculus with 2 samples.

Results

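The troponin genes are the 8 genes that encode the troponin C, I and T subunits in mouse, and they were taken by symbol from a table of 24421 genes counted in whole-layer back skin. The fast skeletal isoforms are Tnnc2, Tnni2 and Tnnt3, the slow skeletal isoforms are Tnnc1, Tnni1 and Tnnt1, and the cardiac isoforms are Tnni3 and Tnnt2. The genes were named for this description with their values in the same 2 libraries already known, so their levels and ratios are a description of those libraries and carry no test. All 8 genes exceeded the floor of 3 counts in at least 1 library.

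The skin came from wild type C57BL6/J mice, described in the methods as 8-week-old females with hair follicles in telogen. One group, control, was skin collected without strain, and the other, stretched, was skin stretched until day 5 by a device glued to the back, with the glued area discarded. The labels give 33% strain, and the methods describe initial strains that were raised daily. Each group is a single RNA-seq library, with 14152379 counts without strain and 11648655 under strain, and the sources used here do not give the number of mice behind a library. The differences below therefore could not be set against replicate spread, and no p-value is given. Each ratio is one of CPM (the count scaled to a fixed library total) and carries an exact 95% Clopper-Pearson interval that covers counting error only.

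Troponin is the calcium switch of the thin filament in striated muscle. Troponin C binds calcium, troponin I holds back the interaction of actin with myosin until calcium binds, and troponin T ties the complex to tropomyosin. Smooth muscle does not use it, and in mouse back skin the striated muscle is the panniculus carnosus, a thin sheet below the dermis that is made largely of fast fibres in the adult. Troponin C of slow skeletal muscle is also that of the heart, and the cardiac troponin T gene is also used by developing skeletal muscle.

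The 3 fast isoforms supplied nearly all troponin RNA in both libraries and were modestly lower in stretched skin, whereas the 3 slow isoforms and Tnnt2 were scarce in control skin and 5.26-fold to 27.3-fold higher in stretched skin. The methods filter genes on a product of both FPKM values above 10 and then call a 2-fold difference. With 1 added to each FPKM, in the product and in the fold alike, Tnnc1, Tnni1, Tnnt1 and Tnnt2 were called higher in stretched skin, which is 4 of the 8 genes. Of all 10908 genes that passed, 2.61% were higher by this rule and 2.43% were lower. With plain FPKM, as the methods state the filter, the product of Tnnt2 was 4.72 and its call was lost, which left 3 of the 8 genes higher, beside 2.94% of the 9681 genes that passed. None of the 8 was lower by either form, beside 2.85% of those 9681 genes with plain FPKM. The counts below use the form with 1 added.

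**Figure D1:**
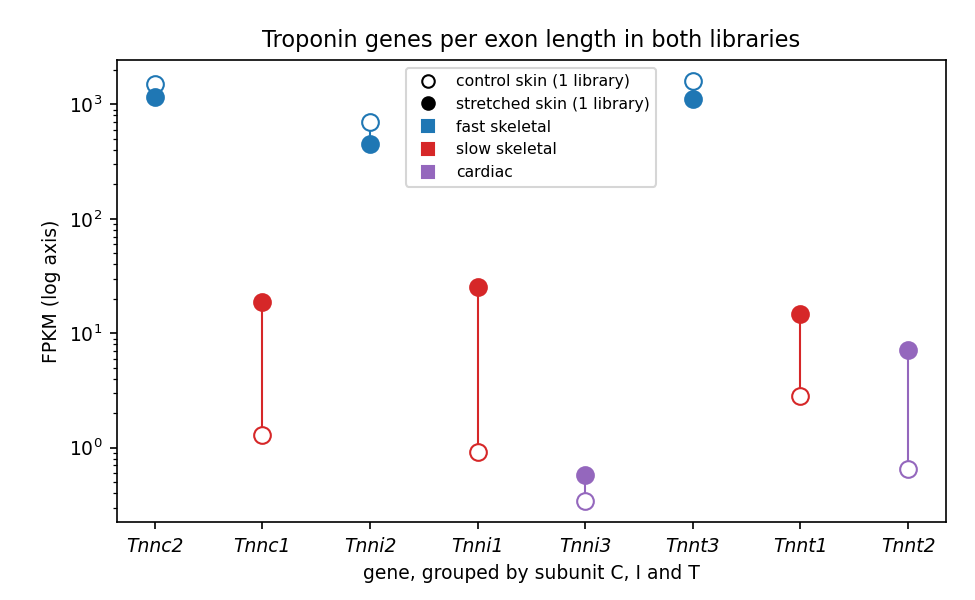
FPKM (CPM per kilobase of exon, log axis) of the 8 troponin genes, grouped by subunit, with open circles for the control library and filled circles for the stretched library. The fast isoforms sit between 452 and 1600 in both libraries, and Tnnc1, Tnni1, Tnnt1 and Tnnt2 lie below 3 in control skin and between 7.19 and 25.2 in stretched skin.

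Among the troponin I genes, Tnni1, which encodes the slow skeletal inhibitory subunit, was counted 47 times without strain and 1055 times under strain, or 3.32 and 90.6 CPM. Its log2 ratio was 4.77 (interval 4.35 to 5.22), which is 27.3-fold and rank 6 from the top of the 16255 genes above 3 counts in 1 library or both, with lower counts set to 3. Tnni2, the fast skeletal inhibitory subunit, had 14814 counts without strain against 7886 under strain. It was thus 1.55-fold lower in stretched skin, with a log2 ratio of -0.63 (interval -0.67 to -0.59). Tnni3, the inhibitory subunit of adult heart, went from 10 counts in the control library to 14 in the stretched library. A difference in the CPM of Tnni3 was not detectable at this depth, since the log2 ratio of 0.77 had an interval from -0.51 to 2.1.

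The troponin C genes showed the same contrast between a slow and a fast isoform. Tnnc1, the calcium-binding subunit of slow skeletal and cardiac muscle, was counted 19 times without strain and 229 times under strain, a log2 ratio of 3.87 (interval 3.20 to 4.63). Tnnc2, its fast skeletal counterpart, had 17189 counts without strain against 10709 under strain, a log2 ratio of -0.40 (interval -0.44 to -0.37). Control skin held little Tnnc1, so the fold of 14.6 could lie anywhere between 9.16 and 24.8 from counting error alone. The value of Tnnc2 is uncertain in another way, because 74% of its exon bases lie within exons of Ube2c on the opposite strand and the library kit named in the labels does not mark strand. Ube2c, a gene of cell division, went from 341 counts in the control library to 176 in the stretched library, and how the counting divided the shared bases is not given in the sources used here.

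Both non-fast troponin T genes were higher in stretched skin, and Tnnt2 more so than Tnnt1. Tnnt1, the slow skeletal subunit that binds tropomyosin, was counted 88 times without strain and 381 times under strain, a log2 ratio of 2.40 (interval 2.06 to 2.75). Tnnt2, the cardiac subunit, had 72 counts without strain against 649 under strain, a log2 ratio of 3.45 (interval 3.10 to 3.83). The ratio of Tnnt2 exceeded that of Tnnt1 by 1.06 on the log2 scale (interval 0.56 to 1.56). Tnnt3, the fast skeletal subunit, went from 35836 counts in the control library to 20444 in the stretched library, the most of any troponin gene in either library. Its log2 ratio was -0.53 (interval -0.55 to -0.50), between those of Tnnc2 and Tnni2.

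**Figure D2:**
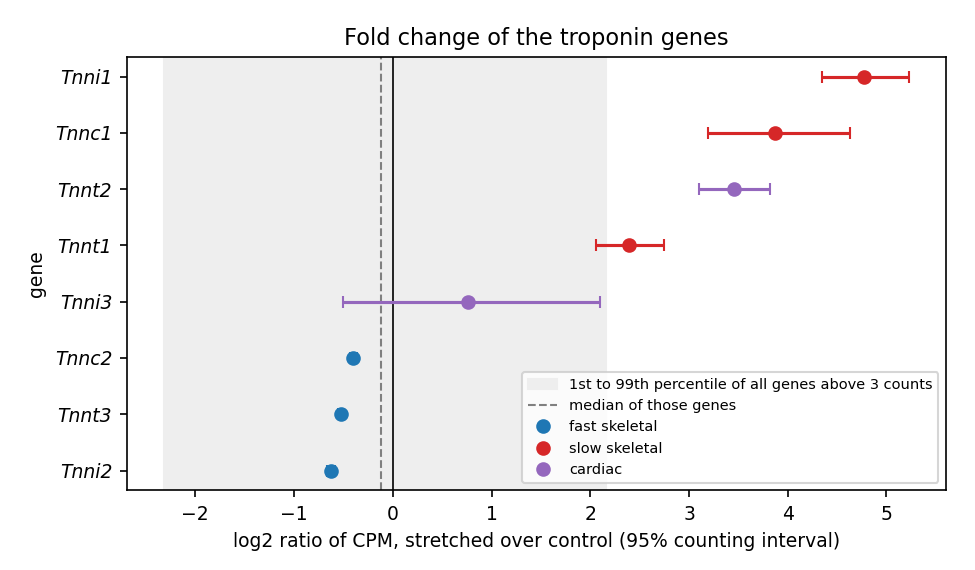
Log2 ratio of CPM in stretched over control skin for each troponin gene, with bars for the 95% counting interval, a band from the 1st to the 99th percentile of the 16255 genes above 3 counts (-2.32 to 2.16) and a dashed line at their median of -0.12. The points of Tnni1, Tnnc1, Tnnt2 and Tnnt1 lie above the band, and those of the 3 fast isoforms lie below the median within it.

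The slow isoforms had a median log2 ratio of 3.87, the cardiac isoforms 2.11 and the fast isoforms -0.53, beside -0.12 for all 16255 genes. The cardiac median is the midpoint of 2 unlike genes and stands for neither. The counting interval lay wholly above 0 for 3 of 3 slow genes and 1 of 2 cardiac genes, against 18.1% of all genes, and wholly below 0 for 3 of 3 fast genes, against 33.5% of all genes. This interval narrows as counts rise, so for abundant genes such as the fast isoforms it can exclude 0 at small ratios. For Acta1, at a log2 ratio of -0.07, it ran from -0.08 to -0.06. The 4 genes with the large ratios were not equal among themselves. The log2 ratio of Tnni1 was above that of Tnnt2 by 1.32 (interval 0.75 to 1.89) and above that of Tnnc1 by 0.90 (interval 0.03 to 1.71), while Tnnc1 and Tnnt2 were not separated by their counting error (difference 0.42, interval -0.35 to 1.26). The fast genes lay closer together, with Tnni2 below Tnnc2 by 0.23 (difference -0.23, interval -0.28 to -0.17) and below Tnnt3 by 0.10 (difference -0.10, interval -0.15 to -0.05).

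**Figure D3:**
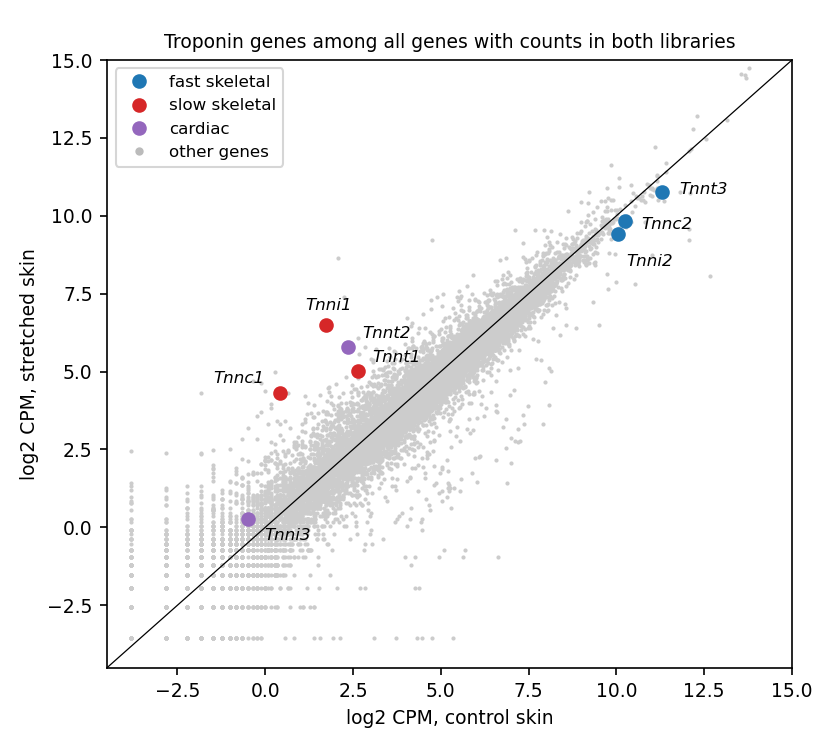
Log2 CPM of every gene with counts in both libraries, control skin on the x axis and stretched skin on the y axis, with the troponin genes in colour and a line of equal CPM. The fast isoforms lie just below the line among the most abundant genes, Tnni3 lies near it, and Tnni1, Tnnc1, Tnnt1 and Tnnt2 lie above the main cloud.

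Levels of different genes were compared per exon length. In control skin Tnnt3 had 1600 FPKM, Tnnc2 had 1518 and Tnni2 had 699, and no other troponin gene reached 3. Tnnt1 followed at 2.82 FPKM, then Tnnc1 at 1.29, Tnni1 at 0.92, Tnnt2 at 0.66 and Tnni3 at 0.34. The intervals of Tnnc1 (0.78 to 2.01) and Tnni1 (0.68 to 1.23) overlapped, as did those of Tnni1 and Tnnt2 (0.51 to 0.83) and of Tnnt2 and Tnni3 (0.16 to 0.63), so the order among these neighbours is not fixed. In stretched skin Tnnc2 had 1149 FPKM, Tnnt3 had 1109 and Tnni2 had 452. Which of Tnnc2 and Tnnt3 ranked first in stretched skin depends on the length used, since per length of the longest transcript Tnnt3 was first in both libraries, with 2347 against 1735 in the control library and 1627 against 1313 in the stretched library. Below them the order had changed, with Tnni1 at 25.2 FPKM, Tnnc1 at 18.9, Tnnt1 at 14.8, Tnnt2 at 7.19 and Tnni3 at 0.58. The intervals of these 5 genes did not overlap, the closest being Tnnc1 (16.5 to 21.5) and Tnnt1 (13.4 to 16.4), but these intervals hold no error of length. Per length of the longest transcript Tnnt1 stood at 30.9 and Tnnc1 at 27.3, so their order is not fixed either. Tnni1 thus ranked lower than Tnnt1 in control skin and higher in stretched skin.

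The isoform makeup of each subunit does not depend on how the libraries are scaled against each other. Per exon length, slow and cardiac isoforms made up 0.0849% of troponin C RNA in control skin and 1.62% in stretched skin. For troponin I the share was 0.181% in control skin and 5.39% in stretched skin, of which Tnni1 was 5.26% and Tnni3 was 0.122%. For troponin T it was 0.217% in control skin and 1.95% in stretched skin, of which Tnnt1 was 1.31% and Tnnt2 was 0.636%. In counts not divided by length the troponin I share in stretched skin was 11.9% (exact interval 11.3% to 12.6%), since the annotated exons of Tnni1 sum to 3600 bases and those of Tnni2 to 1497. Tnnt2 had more counts than Tnnt1 in stretched skin but less RNA per exon length, and its annotated exons sum to 7752 bases against 2204 for Tnnt1. Relative to the fast isoform of the same subunit, the ratio between libraries was 42.2-fold for Tnni1 (interval 31.4 to 57.8), 19.3-fold for Tnnc1 (12.1 to 32.7), 15.8-fold for Tnnt2 (12.4 to 20.5) and 7.59-fold for Tnnt1 (6.0 to 9.69). For Tnni3 it was 2.63-fold (1.09 to 6.62), from 10 and 14 counts of Tnni3.

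**Figure D4:**
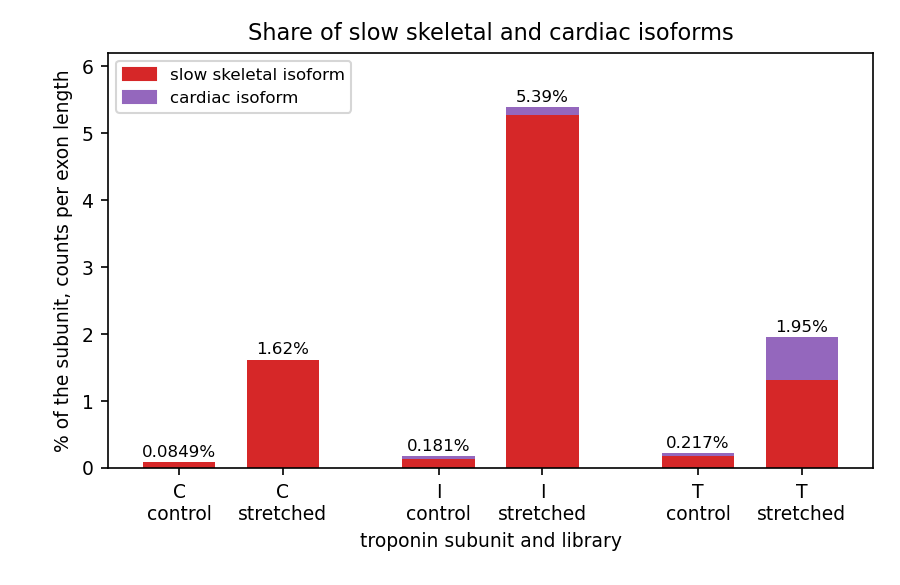
Percent of each troponin subunit's RNA, in counts per exon length, that came from slow skeletal (red) and cardiac (purple) isoforms in the control and stretched libraries, with the sum written above each bar. Each sum is higher in stretched skin, and the highest is 5.39% for troponin I.

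Troponin RNA as a whole was lower in stretched skin. The 8 genes held 68075 counts in the control library, which is 0.481% of the library (exact interval 0.477% to 0.485%), and 41367 in stretched skin, which is 0.355% (0.352% to 0.359%). The sum of the fast genes went from 4793 to 3351 CPM, while that of the slow and cardiac genes went from 16.7 to 200 CPM, so that the additional slow and cardiac RNA was far smaller than the deficit in fast RNA. The summed log2 ratio was -0.37 for troponin C, -0.45 for troponin I and -0.46 for troponin T. In bulk skin, fewer muscle cells and less RNA per muscle cell cannot be told apart.

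The 3 troponin I genes each lie beside a troponin T gene on mm10, and the members of a neighbouring pair are not always of 1 fibre class. Tnni1 (chromosome 1, 135779434 to 135810989) and Tnnt2 (135836354 to 135852260) are 25.4 kb apart with Lad1, an epithelial anchoring gene, between them. Both were among the genes with large ratios, whereas Lad1 was counted 3408 times without strain and 2396 times under strain. Tnni2 (chromosome 7, 142441808 to 142444410) and Tnnt3 (142498836 to 142516009) are 54.4 kb apart and were both lower in stretched skin, whereas Lsp1 between them, a gene of leukocytes, had 959 counts without strain against 1743 under strain. Tnnt1 (chromosome 7, 4504570 to 4516382) and Tnni3 (4518305 to 4524229) are 1.92 kb apart with no protein-coding gene between them. In this closest pair Tnnt1 was higher in stretched skin and Tnni3 stayed at 14 counts or fewer. Tnnc2 (chromosome 2, 164777161 to 164779967) and Tnnc1 (chromosome 14, 31208312 to 31211729) are on chromosomes of their own. Tnnc2 shares 34.5% of its 76-base stretches with Ube2c transcripts, and Tnni3 shares 0.491% with Dnaaf3. Apart from these, no troponin gene shares an exact stretch of the read length with another gene, so exact full-length reads can tell the isoforms apart. The methods also keep shorter reads, and stretches of those lengths were not checked.

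The sequences just before the start sites are given for the 4 genes with large ratios and for Tnnc2 as the fast gene. They are from RefSeq on GRCm38.p6, and 6 of the 8 genes matched, while Tnni2 and Tnnt3 had no entry in the table used. Each is the 250 bases before the first base of the transcript, 5′ to 3′ on the strand of the gene, with the first listed start for Tnni1 and Tnnt2. They lie at chr1:135799171-135799420 on the plus strand for Tnni1, chr14:31208062-31208311 on the plus strand for Tnnc1, chr1:135836084-135836333 on the plus strand for Tnnt2, chr7:4515976-4516225 on the minus strand for Tnnt1 and chr2:164779735-164779984 on the minus strand for Tnnc2. RefSeq and GENCODE place some starts differently, so the windows of Tnni1 and Tnnt1 and most of that of Tnnc2 fall inside the gene bounds given above. Capitals mark an E-box (CANNTG, the site of myogenic helix-loop-helix factors), an M-CAT motif (CATTCC on either strand, the site of TEAD factors) or TATAAA on the strand of the gene, and no MEF2 or CArG motif was found in them.
Tnni1: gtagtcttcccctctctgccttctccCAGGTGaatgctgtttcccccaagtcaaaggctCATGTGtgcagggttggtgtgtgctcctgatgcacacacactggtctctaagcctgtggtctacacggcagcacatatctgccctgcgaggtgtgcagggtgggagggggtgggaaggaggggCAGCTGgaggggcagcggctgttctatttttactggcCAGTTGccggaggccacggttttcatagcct
Tnnc1: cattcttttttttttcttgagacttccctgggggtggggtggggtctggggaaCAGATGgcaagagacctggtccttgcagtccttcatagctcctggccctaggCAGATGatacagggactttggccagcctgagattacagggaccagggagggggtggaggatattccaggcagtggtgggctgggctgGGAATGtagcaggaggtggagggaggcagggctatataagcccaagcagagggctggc
Tnnt2: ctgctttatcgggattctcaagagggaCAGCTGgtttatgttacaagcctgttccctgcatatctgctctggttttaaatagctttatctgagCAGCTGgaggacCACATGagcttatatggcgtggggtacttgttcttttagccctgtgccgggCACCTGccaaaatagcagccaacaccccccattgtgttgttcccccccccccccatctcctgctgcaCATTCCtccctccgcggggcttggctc
Tnnt1: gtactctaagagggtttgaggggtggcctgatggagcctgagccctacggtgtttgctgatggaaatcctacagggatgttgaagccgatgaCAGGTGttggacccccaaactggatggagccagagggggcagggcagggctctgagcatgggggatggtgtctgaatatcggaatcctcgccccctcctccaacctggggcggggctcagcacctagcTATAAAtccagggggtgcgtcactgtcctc
Tnnc2: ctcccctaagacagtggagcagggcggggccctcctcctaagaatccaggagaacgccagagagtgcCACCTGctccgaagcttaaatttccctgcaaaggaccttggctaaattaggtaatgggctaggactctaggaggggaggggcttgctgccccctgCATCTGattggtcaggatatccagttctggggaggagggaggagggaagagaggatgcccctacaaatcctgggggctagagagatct

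The E-box was found in all 5 windows, with 4 matches for Tnni1, 4 for Tnnt2, 2 for Tnnc1, 1 for Tnnt1 and 2 for Tnnc2, but 66.2% of all 32851 windows of the same length hold 1 as well. The form CAGCTG, a subset of the E-box, was present once for Tnni1 and 2 times for Tnnt2 and is held by 13% of all windows. The M-CAT motif was present for Tnnc1, from 58 to 53 bases before the start, and for Tnnt2, from 27 to 22 bases before it, and 12.6% of all windows hold it. TATAAA stood 30 to 25 bases before the start of Tnnt1, and 7.59% of all windows hold it at any position. At the other listed start the window of Tnni1 held 2 E-boxes, 1 of them CAGCTG, and that of Tnnt2 held 1 E-box with no CAGCTG and no M-CAT motif, so the matches depend on the start taken. The MEF2 motif is held by 2.92% and the CArG motif by 1.47% of all windows. These matches are letters in a window and do not show binding.

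By the 2-fold rule, 1 of 11 partners of troponin on the filament was higher, beside 2.61% of all genes that passed the filter. Of the partners 0 were lower, beside 2.43%, and their median log2 ratio was -0.07. The one called was Actc1, the cardiac actin that developing skeletal muscle also uses. It had 655 counts without strain and 1897 under strain (log2 ratio 1.82, interval 1.69 to 1.95). The largest fall was that of Nebl, the nebulin relative nebulette, with 257 counts without strain against 66 under strain (log2 ratio -1.68, interval -2.09 to -1.29), whose FPKM product was too low for a call. Acta1, the actin of adult skeletal muscle, went from 127849 counts in the control library to 100096 in the stretched library, a log2 ratio of -0.07. The tropomyosin genes, whose products carry troponin, had log2 ratios of -0.28 for Tpm1, -0.01 for Tpm2 and 0.28 for Tpm3, the isoform of slow fibres and of many cells outside muscle. The ratio of Tnnc1 exceeded that of Actc1 by 2.06 on the log2 scale (interval 1.37 to 2.83).

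Genes of slow fibres other than the troponins went both ways. The 8 slow fibre genes had a median log2 ratio of -0.31, with 2 higher and 1 lower by the 2-fold rule. Of all genes that passed the filter, 2.61% were higher and 2.43% were lower. Myh7, the myosin heavy chain of slow fibres and heart, was counted 106 times without strain and 13 times under strain (log2 ratio -2.75, interval -3.70 to -1.91). Myl2, the slow regulatory light chain, had 25 counts without strain against 1 under strain. Myl3, a slow essential light chain, had 14 and 6, and its interval held 0 (-2.61 to 0.53). Myh7, Myl2 and Myl3 were not called by the rule. The most counted genes of the list, Csrp3 (log2 ratio 0.31) and Atp2a2 (0.34), had intervals above 0. Intervals lay above 0 for 4 of the 8 genes and below it for 3, against 18.1% and 33.5% of all genes. The 2 called higher were Casq2, a calcium store protein (log2 ratio 1.60), and Myoz2, a Z-disc protein (1.48). The one called lower was Ankrd2, a titin-binding ankyrin repeat protein (-1.03).

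Genes of fast fibres spread wider than the fast troponins. The 11 fast fibre genes had a median log2 ratio of -0.88, with 5 lower and 2 higher by the rule. Of all genes that passed the filter, 2.43% were lower and 2.61% were higher. Myh4, the myosin heavy chain of the fastest fibres, went from 91029 counts in the control library to 3156 in the stretched library (log2 ratio -4.57), and Pvalb, the calcium buffer parvalbumin, had 14367 and 2745 (-2.11). Myh1 and Myh2, the other adult fast myosin heavy chains, were higher in stretched skin, with log2 ratios of 1.10 and 1.46. The fast actinin Actn3 (-0.48) lay within the range of the fast troponins, whereas the light chains Mylpf (-0.24) and Myl1 (-0.13) were nearer to the median of all genes. The 10 skeletal muscle markers went both ways, from -1.05 for Ckm, the muscle creatine kinase, which was called lower, to 1.09 for Mb, myoglobin, which was called higher. Their median was -0.18, and their summed level was 17673 CPM without strain and 15770 under strain, of which Acta1 alone was 9034 and 8593.

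The ratios of the slow troponins and Tnnt2 lay within the range of the 7 genes of developing muscle, whose log2 ratios ran from 1.64 to 6.58. No gene of that list lay between Actc1 at 1.82 and Myh8 at 4.47, and Tnnt1, Tnnt2 and Tnnc1 all fell in that gap. All 7 intervals of the list lay above 0, against 18.1% of all genes. By the rule 6 of the 7 were higher, beside 2.61% of all genes that passed the filter, and the median log2 ratio was 4.71. Myh3, the embryonic myosin heavy chain, was counted 59 times without strain and 4637 times under strain, Myl4, the embryonic light chain, had 67 and 1974, and Tmem8c, a gene of myoblast fusion, had 17 and 365. Myog, the myogenic factor myogenin, had the lowest ratio of the list and was called higher too, with 174 counts without strain and 447 under strain (log2 ratio 1.64, interval 1.39 to 1.90). This list was written with the values of several members known, so its direction is not independent support. Of the 17 regulators of fibre type and of myogenesis, a list that does not hold Myog, 1 was higher by the rule, Myod1, with 112 counts without strain and 217 under strain, and 0 were lower. Among all genes that passed the filter, 2.61% were higher and 2.43% were lower. Vgll2, a cofactor of TEAD factors, was called as well with plain FPKM (163 counts without strain against 278 under strain, log2 ratio 1.05, interval 0.77 to 1.34). The median log2 ratio of the regulators was 0.14. The lowest was Ppargc1a, a coactivator of oxidative and slow fibre genes, with 123 counts without strain against 43 under strain (log2 ratio -1.24, interval -1.77 to -0.72). Sox6, a repressor of slow fibre genes in fast fibres, had 381 counts without strain against 165 under strain (log2 ratio -0.93, interval -1.20 to -0.66). Nfatc1, a calcium-responsive factor of slow fibres, had 826 and 1090 (0.68, interval 0.55 to 0.81).

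**Figure D5:**
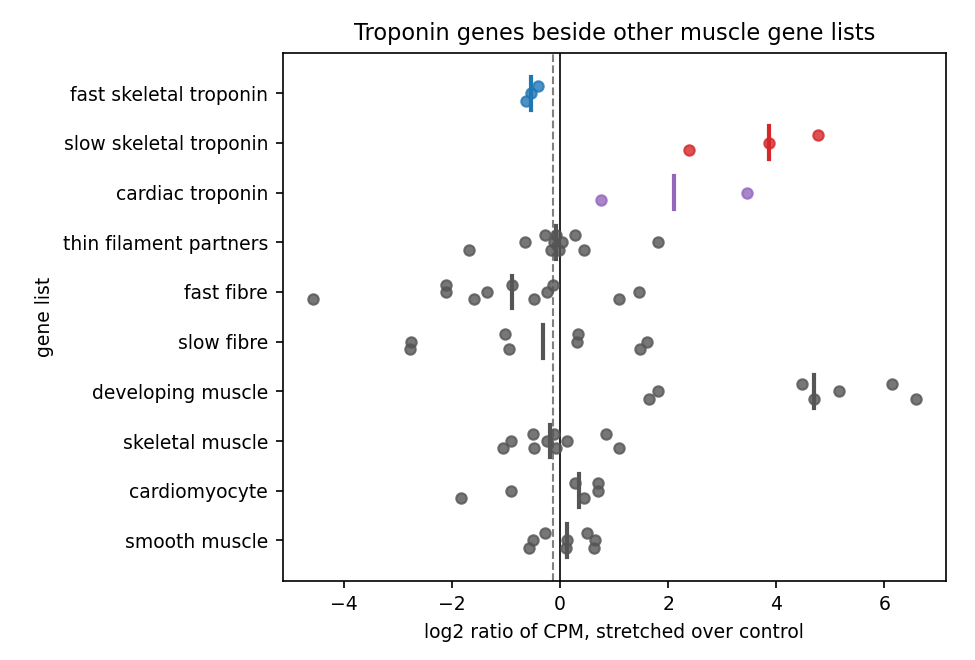
Log2 ratio of CPM in stretched over control skin for each gene above 3 counts in 10 lists (points) with the median of each list (bars), and a dashed line at the median of all genes. Counts of 3 or fewer were set to 3, which affects Myl2 among the slow fibre genes and Mybpc3 and Tnni3k among the cardiomyocyte genes. The slow troponins and Tnnt2 lie above the slow fibre genes and within the range of the developing muscle genes. Tnnt1, Tnnt2 and Tnnc1 lie in a gap between members of that list.

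Markers of other cells were measured beside these values. Of 12 cardiomyocyte genes, 6 had more than 3 counts in either library and none had more than 19. Their summed level was 4.73 CPM without strain and 4.29 under strain. Myl7, Nkx2-5 and Gata4, which mark heart muscle, had 0 counts in both libraries, and Myh6, the main myosin heavy chain of adult mouse heart, had 3 counts without strain and 4 under strain, beside 649 of Tnnt2 under strain. The 8 smooth muscle genes had a median log2 ratio of 0.13 and a summed level of 920 CPM without strain and 934 under strain. The 4 keratinocyte genes, which mark skin, summed to 13803 CPM without strain and 14711 under strain. By contrast, the 4 fibroblast genes were at 39071 CPM without strain and 75070 under strain, nearly all of it from the 3 collagen genes, while Pdgfra, a receptor that marks fibroblasts, was at 126 and 142. The 4 adipocyte genes summed to 997 and 641 CPM, and the 4 macrophage genes to 297 and 662. The part of these shifts in the troponin ratios was not tested.

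Among 12735 other genes with a summed count of at least 100 and some counts in each library, the 5 nearest to Tnni1 by distance in log2 CPM over the 2 libraries were Tnnt2, Myl6b, Myl4, Timp1 and Sprr1b. The first was 0.93 away and the fifth 1.33 away. The nearest to Tnni2 were Actn3, Flnc, Atp5a1, Krt15 and Ctnnb1, from 0.16 to 0.23 away. With 2 libraries, such a distance compares only 2 levels.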

How the data were processed

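RNA was extracted from whole-layer skin and sequenced in single-ended reads of 76 bases. The methods describe filtering with the FASTX-Toolkit and alignment to mm10 with TopHat2, which the submitters' processing notes also name. The authors deposited raw counts per gene symbol, with 1 library per group, and the counter, its annotation and its use of strand are not given in the sources used here. From the counts, CPM used library totals and FPKM the union of exons in GENCODE M21, found for 98.5% of genes. In ratios, counts below 3 were raised to 3, and 3 counts are 0.212 CPM in control and 0.258 CPM in stretched skin. Calls followed the FPKM filter and fold threshold of the methods, with a pseudocount of 1 in product and fold that they do not state. The paper took its FPKM from Cufflinks and reports more upregulated genes than the 285 called higher here, so the calls do not reproduce its list. Intervals are exact Clopper-Pearson or, for FPKM, exact Poisson, and those of differences combine both bounds. The members, the lists and the alternatives were chosen with earlier results of these data known. Genes named are the 8 members, the members of the lists, neighbours and overlapping genes, and the 5 nearest genes to Tnni1 and to Tnni2. Scripts were tested on simulated data. Alternatives were 4 other scalings of the libraries, scaling by muscle markers, 1 CPM added, other lengths, and other filters. Python 3.11.15, scipy 1.17.1, R 4.3.3, edgeR 4.0.16 and DESeq2 1.42.0 were used, the last 2 for scaling factors only.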

Additional observations from a re-analysis of the deposited data

How the results depend on the processing

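No paired analysis was possible because each group is 1 library, and no library could be left out. Other scalings add one shift to every log2 ratio and to the median of all genes, which was 0.10 with TMM, 0.11 with the DESeq2 median of ratios, 0.10 with the upper quartile, 0.06 without the 50 most counted genes and 0.16 with skeletal muscle markers. The fast isoform median of -0.53 was then -0.43, -0.42, -0.43, -0.46 and -0.36 in that order, always lower in stretched skin. With 1 CPM added, the slow median of 3.87 was 3.14, since low control values weigh less. Counting Tnnc1 with the cardiac genes made the cardiac median 3.45. The difference in the slow and cardiac share per exon length, in percentage points, was 1.53 for troponin C, 5.2 for troponin I and 1.73 for troponin T. Without division by length it was 1.98, 11.6 and 4.35, and with the longest transcript it was 1.93 for troponin C and 2.53 for troponin T. The 4 genes called became 3, without Tnnt2, with a pseudocount of 0 or 0.1, and 0 with an EV (the FPKM product) above 100. The summed troponin share, -0.126 percentage points in stretched against control skin, was -0.133 over totals without the 50 top genes, which include Tnnt3. The 1 regulator called became 2 with a pseudocount of 0, an alternative chosen after seeing the data. Of 48 values of single genes, 16 left their counting interval and 0 changed sign. Depth limits Tnni3 most.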
